A study of Mus musculus with 4 samples.

Results

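The genes described here are the ubiquitin-conjugating (E2) enzymes of the mouse, taken as every probe set whose gene symbol starts with Ube2, whatever its level. There were 36 of them among 25206 probe sets, and each had 1 probe set. RNA came from erythroblasts (immature red blood cells) of E14.5 mouse fetal liver, selected with magnetic beads for Ter119, which marks red cell precursors. Cpeb4 binds mRNAs, and its relatives are known for recognising cytoplasmic polyadenylation elements. RNA precipitated with an antibody against Cpeb4 (the IP) was measured in 2 biological replicates. The controls were 1 array of RNA brought down by rabbit IgG and 1 array of input, the total RNA with no antibody step. The labels give no strain or genotype, do not say how many livers were pooled, and do not say whether a control array shared its cells with an IP replicate.

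Ubiquitin is activated by an E1 enzyme, passed to a cysteine of an E2 enzyme, and placed on a protein by the E2 together with an E3 ligase, which picks the target. The E2 often decides which kind of ubiquitin chain is built, and some E2 enzymes carry other modifiers, such as NEDD8 or ISG15. Maturing red cells clear most of their proteins and organelles, and Ube2o and Ube2h are E2 enzymes known for roles in that stage. A few of the 36 are not active E2 enzymes: Ube2v1 and Ube2v2 lack the catalytic cysteine and act as partners of Ube2n, Ube2cbp is a binding partner of Ube2c, and Ube2d-ps is annotated by RefSeq as a long non-coding RNA.

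Values are the deposited log2 expression values, and differences are IP minus control on that log2 scale, so that 1 is 2-fold. Testing with limma was limited to genes whose mean of the 4 values was at or above the 40th percentile among named genes, which left 13911 genes and 31 of the 36 Ube2 genes. "Rose" and "fell" mean an adjusted p below 0.05 over all 13911 genes. The spread came from the 2 IP replicates alone, since each control was 1 array and had to be taken as equally variable. In the alternative called the plain fit, genes equal on both IP arrays kept a spread of 0. Sizes were also counted without a test, for genes where both IP replicates lay at least 2-fold from a control.

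The labelled cell type was borne out by the level of its markers, with 10 of 10 measured erythroblast genes above the array's median in input, at 10.04 or more. The highest input value of any other type's marker was 8.91 (Gp9). Being above that median did not itself set erythroblast genes apart. So were 6 of 6 megakaryocyte, 7 of 8 neutrophil, 4 of 8 macrophage and 4 of 7 hepatocyte markers. The summed levels of markers of other blood and liver cells were higher in the IP than in the controls, though a few high genes can set such a sum. The 8 neutrophil markers had a log2 summed level of 9.40 in input, 10.74 in IgG, and 11.34 and 11.33 in the IP, and the 6 megakaryocyte markers had 9.93, 10.85, 11.69 and 11.80. For the 8 macrophage markers these levels were 7.50, 7.98, 8.66 and 8.88, and for the 7 hepatocyte markers 6.89, 7.67, 8.80 and 9.001, while the erythroblast sum was 14.61, 14.31, 14.33 and 14.34. The median macrophage marker was 3.998 in input, 4.76 in IgG, and 4.66 and 4.79 in the IP, so the IP was not above IgG in both replicates, while the neutrophil median was 5.73, 6.35, 7.53 and 7.55. The megakaryocyte median was 6.57, 8.59, 8.89 and 9.02, and the hepatocyte median 4.19, 4.38, 4.89 and 4.89. No marker was at 0. In such bulk RNA, fewer cells of a type, less RNA per cell and less recovery in a precipitate cannot be told apart. The part of these other cells in the differences below was not tested.

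Of the 31 tested Ube2 genes, 6 stood at least 2-fold above both controls in both IP replicates: Ube2d1, Ube2d3, Ube2l3, Ube2n, Ube2v2 and Ube2q2. That is 19.4% of them, where 2.49% of all tested genes did so. No tested Ube2 gene lay 2-fold below both controls (0.503% of all tested genes did), though the untested Ube2v1 did. All 6 also rose by the limma test against each control, and Ube2d2a and Ube2g2 rose against both by less than 2-fold over at least one of them. In all, 8 Ube2 genes rose against both controls (7.03% of all tested genes) and 0 fell against both (2.07%). The comparisons share the IP arrays, so standing above one control and above the other are not separate evidence.

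**Figure D1:**
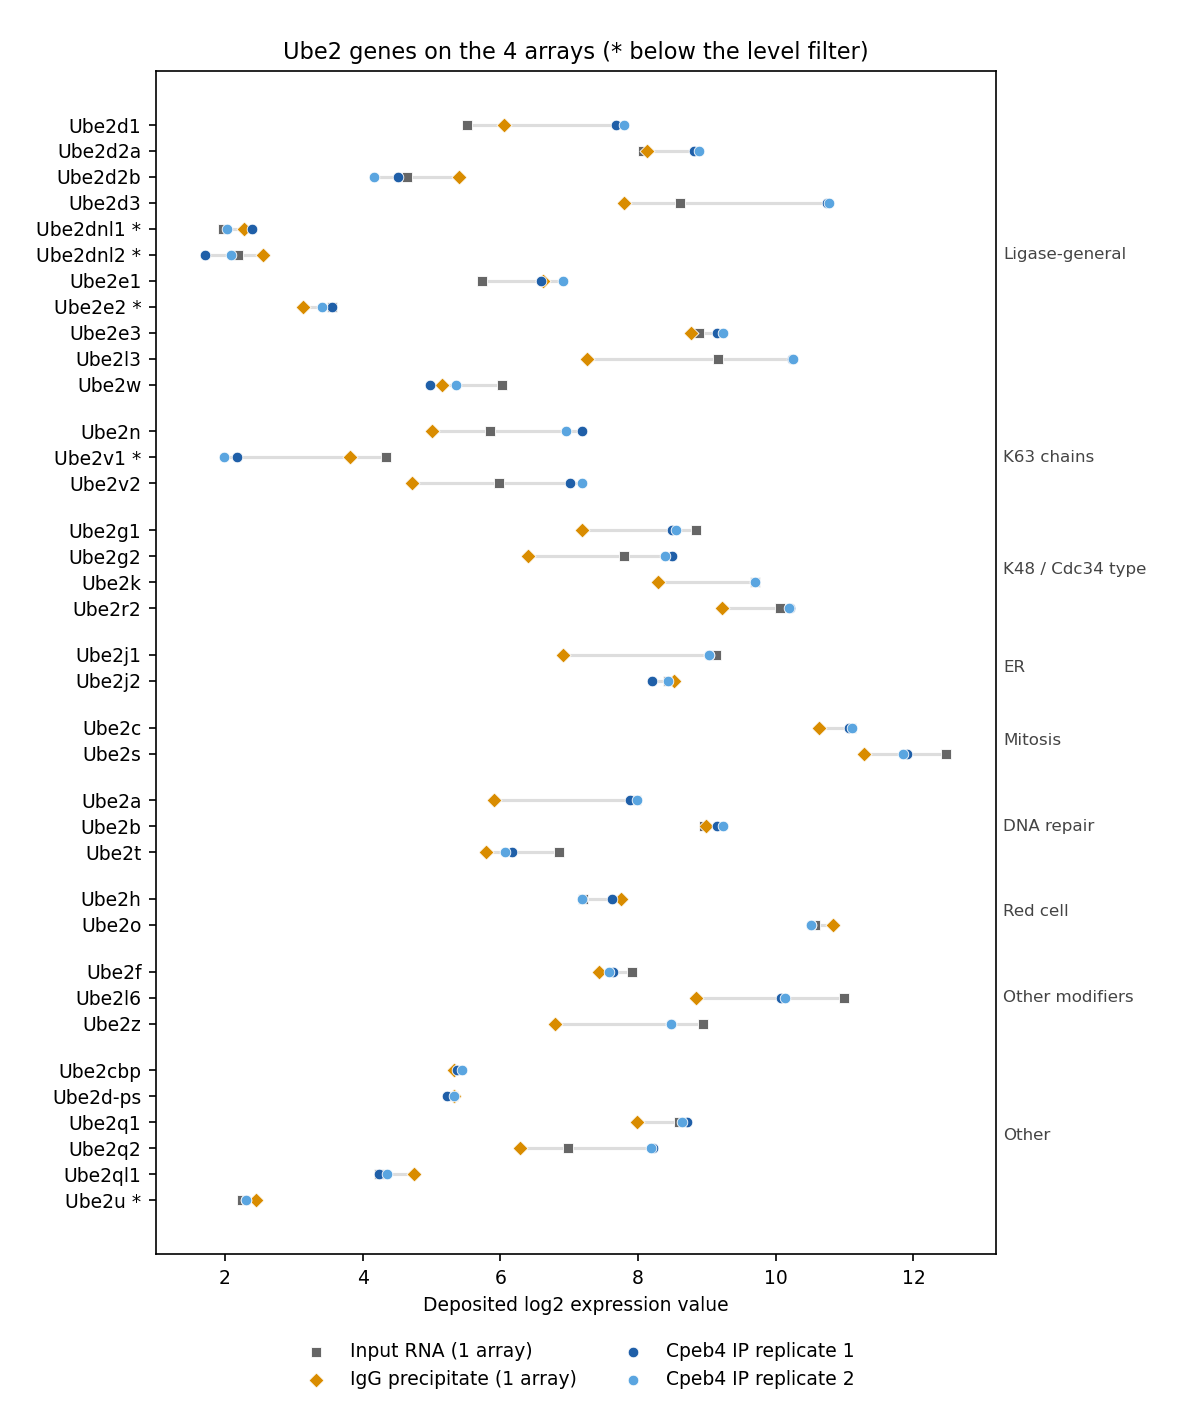
Deposited log2 expression values (horizontal axis) of the 36 Ube2 genes on the 4 arrays, grouped by role. Input is a grey square, IgG an orange diamond and the IP replicates blue circles, with a grey line from the lowest to the highest value. For Ube2d3 the IP replicates lie at 10.74 and 10.77, to the right of input at 8.61 and IgG at 7.80, while for Ube2k input and both IP replicates coincide at 9.70.

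The Ube2d family, E2 enzymes that work with many ligases and build chains of several linkages, held the largest rises over input among the tested Ube2 genes. Ube2d3 was 8.61 in input, 7.80 in IgG, and 10.74 and 10.77 in the IP replicates. The IP replicates were thus close together and well above both controls. The rise of Ube2d3 was 2.95 over IgG (SE 0.12, 7.75-fold) and 2.14 over input (4.42-fold), with limma adjusted p = 0.00173 and 0.00948. Ube2d1 was 5.51 in input, 6.05 in IgG, and 7.68 and 7.80 in the IP. It had its lowest value in input, unlike Ube2d3, and rose by 2.23 over input (SE 0.13, 4.68-fold) and by 1.69 over IgG (3.22-fold), with limma adjusted p = 0.00948 and 0.00221.

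Ube2d2a, the third of the main Ube2d genes, differed less. Its values were 8.08 in input, 8.13 in IgG, and 8.81 and 8.89 in the IP, so that the controls were alike and the IP stood above both. It rose by 0.72 over IgG and by 0.77 over input (limma adjusted p = 0.0116 and 0.0232). After the 4 arrays were quantile normalized again, its difference from IgG was 0.06 and no longer passed (limma adjusted p = 0.431), while that from input was 0.96. In the plain fit the call against input was lost (limma adjusted p = 0.0700). Ube2d2b, a close copy of Ube2d2a, went the other way against IgG: it was 4.65 in input, 5.40 in IgG, and 4.51 and 4.17 in the IP, and fell by 1.06 against IgG (limma adjusted p = 0.0131), a call lost in the plain fit (0.135). It differed from input by -0.31 and did not pass. The Ube2d genes are near-identical in sequence, and how far the probes keep them apart was not stated.

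Ube2l3, the E2 of HECT-type and RING-between-RING ligases such as parkin, had the largest difference from IgG among the Ube2 genes. Its values were 9.17 in input, 7.26 in IgG, and 10.24 and 10.25 in the IP. IgG was by far the lowest of the 4. The rise of Ube2l3 was 2.99 over IgG (SE 0.12, 7.93-fold) and 1.08 over input (2.11-fold), with limma adjusted p = 0.00173 and 0.0126.

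The tested Ube2e enzymes, which resemble the Ube2d family with an added N-terminal stretch, lay above input in both IP replicates but differed in their calls. Ube2e1 was 5.73 in input, 6.62 in IgG, and 6.60 and 6.91 in the IP. The IgG value lay between the IP replicates, and Ube2e1 rose against input only, by 1.02 (SE 0.18, limma adjusted p = 0.0283), with 0.13 against IgG. That call was lost in the plain fit (limma adjusted p = 0.184) and after the further quantile normalization (difference 0.99, limma adjusted p = 0.0772). Ube2e3 was 8.89 in input, 8.77 in IgG, and 9.15 and 9.23 in the IP, and rose by 0.43 over IgG (limma adjusted p = 0.0456). This call was lost in the plain fit (limma adjusted p = 0.0779) and with no level filter (0.0583). The difference turned to -0.11 after the further quantile normalization. From input Ube2e3 differed by 0.30 and was not called (limma adjusted p = 0.166). That difference passed with trend and robust settings (limma adjusted p = 0.0337) and under the 80th percentile filter. Ube2w, which places ubiquitin on protein N-termini, was 6.03 in input, 5.15 in IgG, and 4.98 and 5.36 in the IP, so it sat near IgG and below input. Against input Ube2w differed by -0.86 and was not called (limma adjusted p = 0.0506), but passed with trend and robust settings (0.0372) and under the 60th percentile filter (0.0339).

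Ube2n and Ube2v2, which form a pair of proteins that builds K63-linked chains used in DNA damage signalling, lay high in the IP together. Ube2n was 5.86 in input, 5.002 in IgG, and 7.19 and 6.95 in the IP. Ube2v2 was 5.98 in input, 4.71 in IgG, and 7.02 and 7.19 in the IP. In both genes IgG was the lowest array and both IP replicates were above input. Ube2n rose by 2.07 over IgG (SE 0.16, 4.20-fold) and by 1.22 over input (2.32-fold), with limma adjusted p = 0.00222 and 0.016. Ube2v2 rose by 2.39 over IgG (SE 0.14, 5.26-fold) and by 1.13 over input (2.18-fold), with limma adjusted p = 0.00179 and 0.0151. The call of Ube2n against input was lost after the further quantile normalization (difference 1.20, limma adjusted p = 0.0591). In the plain fit the calls of both genes against input were lost (limma adjusted p = 0.121 for Ube2n and 0.0974 for Ube2v2).

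Ube2v1, the other inactive partner of Ube2n, was not tested, as its mean over the 4 arrays was 3.08, below the filter's 3.84. Among named genes it was at percentile 53.2 in input, 33.3 in IgG, and 4.46 and 2.31 in the IP. The low IP values are thus part of why Ube2v1 missed the filter. Its values were 4.34 in input, 3.82 in IgG, and 2.18 and 1.98 in the IP. Both IP replicates were the low ones, 1.74 below IgG and 2.25 below input on the log2 scale, that is 3.35-fold and 4.77-fold. Such low values may hold little signal, and no detection calls were used here. Ube2v1 is the one Ube2 gene that lay at least 2-fold below both controls when genes of every level were counted.

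**Figure D2:**
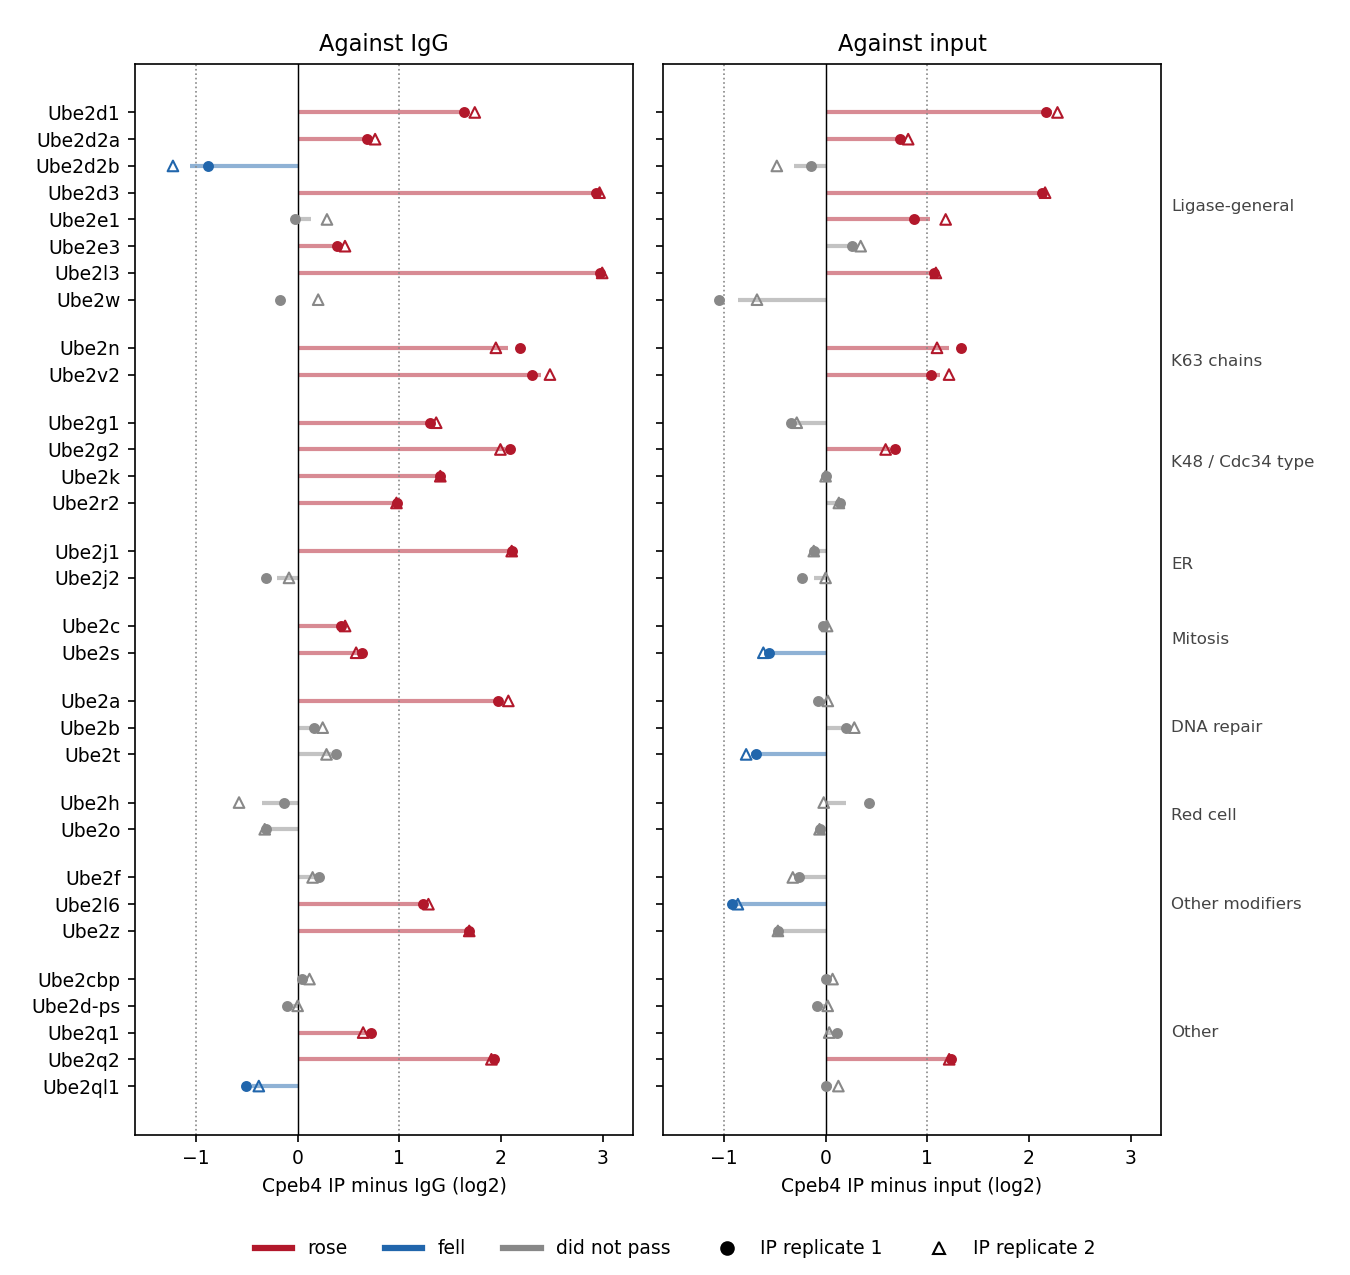
Difference of each IP replicate from IgG (left) and from input (right) on the log2 scale for the 31 tested Ube2 genes, grouped by role. Circles are IP replicate 1, triangles IP replicate 2 and lines their mean, coloured by the limma call, with dotted lines at 2-fold. Ube2d1 and Ube2d3 lie past 2-fold on both sides, while Ube2j1 at 2.11 and Ube2a at 2.02 on the left are near 0 on the right.

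The E2 enzymes of K48-linked chains, the usual signal for the proteasome, rose against IgG in 4 of 4 cases and against input in 1. All 4 lay at or above the 80th percentile of level, where 70.6% of all genes rose against IgG and 21.7% against input. Over all tested genes these shares were 35% and 9.38%. Ube2g2, an E2 of endoplasmic reticulum quality control, was 7.80 in input, 6.40 in IgG, and 8.49 and 8.39 in the IP. It rose by 2.04 over IgG and by 0.64 over input (limma adjusted p = 0.00182 and 0.0349), the latter lost in the plain fit (0.0937). Ube2g1 was 8.84 in input, 7.19 in IgG, and 8.49 and 8.56 in the IP, so that the IP lay between the controls. Ube2g1 rose by 1.33 over IgG (limma adjusted p = 0.00293) and differed by -0.31 from input, which passed with trend and robust settings (0.0441) and under the 80th percentile filter. Ube2k was 9.70 in input and in both IP replicates and 8.30 in IgG, equal on 3 arrays, as RMA's summary step can give. It rose by 1.40 over IgG (limma adjusted p = 0.00688) and differed by 0.00 from input. Ube2r2, a relative of Cdc34 that works with cullin ligases, was 10.06 in input, 9.22 in IgG, and 10.20 and 10.19 in the IP, and rose by 0.98 over IgG (limma adjusted p = 0.00518).

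The 2 E2 enzymes anchored in the endoplasmic reticulum membrane differed from each other. Ube2j1 was 9.14 in input, 6.92 in IgG, and 9.02 in both IP replicates. Ube2j1 rose against IgG, by 2.11 or 4.31-fold (limma adjusted p = 0.00351), and differed by -0.12 from input, so its IP values lay near input and its IgG value alone was low. In the plain fit, the difference from input passed (limma adjusted p = 0.0355). That fit kept a spread of 0 for the equal IP replicates of Ube2j1, so this pass is set by the tie. Ube2j2 was 8.43 in input, 8.52 in IgG, and 8.20 and 8.43 in the IP, and passed against neither control. After the further quantile normalization it fell by 0.82 against IgG (limma adjusted p = 0.0374).

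Ube2c and Ube2s work in turn with the anaphase-promoting complex, starting and lengthening ubiquitin chains in mitosis. Ube2c was 11.09 in input, 10.64 in IgG, and 11.06 and 11.10 in the IP, and rose by 0.45 over IgG (limma adjusted p = 0.0366) with 0.00 against input. Ube2s was 12.47 in input, 11.28 in IgG, and 11.91 and 11.85 in the IP. The IP thus lay between the controls, and Ube2s rose by 0.60 over IgG and fell by 0.58 against input (limma adjusted p = 0.0173 and 0.039). The fall against input was lost in the plain fit (limma adjusted p = 0.0663) and with no level filter (0.0581). Ube2s and Ube2l6 were the 2 Ube2 genes that rose against IgG and fell against input, as 5.31% of all tested genes did.

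Among the E2 enzymes of DNA repair and chromatin, Ube2a and Ube2b are the paired copies of yeast Rad6. Ube2a was 7.97 in input, 5.91 in IgG, and 7.89 and 7.99 in the IP, and rose against IgG by 2.02 or 4.07-fold (limma adjusted p = 0.00183), with -0.03 against input. Ube2b was 8.96 in input, 8.99 in IgG, and 9.15 and 9.24 in the IP, and passed against neither control. The IgG array was low for Ube2a and level with input for Ube2b. Ube2t, the E2 of the Fanconi anaemia pathway, was 6.85 in input, 5.79 in IgG, and 6.17 and 6.07 in the IP, and fell by 0.73 against input (limma adjusted p = 0.0267). This call was lost in the plain fit (limma adjusted p = 0.0848) and after the further quantile normalization (difference -0.55, limma adjusted p = 0.067).

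The 2 E2 enzymes best known from red cell maturation passed against neither control. Ube2o, a large enzyme that also picks its own targets and marks unassembled proteins in reticulocytes, was 10.57 in input, 10.83 in IgG, and 10.52 and 10.51 in the IP. Both IP replicates were slightly below both controls, by -0.32 from IgG (limma adjusted p = 0.0838) and -0.06 from input (0.863). The IgG difference was called as a fall in several alternatives, among them limma with trend and robust settings (adjusted p = 0.00399). Ube2h, the partner of the CTLH ligase, was 7.20 in input, 7.76 in IgG, and 7.62 and 7.18 in the IP, differing by -0.36 from IgG and 0.20 from input. Its IP replicates were 0.44 apart, the widest gap among the tested Ube2 genes.

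Of the 3 tested enzymes of other modifiers, 2 rose against IgG and 1 fell against input, where 35% and 13.8% of all tested genes did. All 3 lay at or above the 80th percentile of level, where 70.6% of all genes rose against IgG and 39.3% fell against input. Under that filter Ube2f, Ube2l6 and Ube2z all fell against input. Ube2l6, the E2 of the interferon-induced modifier ISG15, was 10.99 in input, 8.84 in IgG, and 10.07 and 10.13 in the IP. It rose by 1.26 over IgG and fell by 0.89 against input (limma adjusted p = 0.00321 and 0.0171), the lowest difference from input among the tested Ube2 genes. Ube2z, which is charged by the second ubiquitin E1, Uba6, was 8.95 in input, 6.79 in IgG, and 8.48 in both IP replicates, and rose by 1.69 over IgG (limma adjusted p = 0.00499), with -0.47 against input (0.113). The latter passed in the plain fit (limma adjusted p = 0.0164), which kept a spread of 0 for its equal IP replicates, and with trend and robust settings (0.0231). Ube2f, an E2 for NEDD8, was 7.91 in input, 7.44 in IgG, and 7.64 and 7.58 in the IP. Its difference of 0.18 from IgG did not pass, and after the further quantile normalization it fell by 0.56 (limma adjusted p = 0.0252).

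Of the remaining genes, Ube2q2, a little studied E2, stood above both controls. Its values were 6.98 in input, 6.29 in IgG, and 8.22 and 8.19 in the IP. It rose by 1.92 over IgG (SE 0.12, 3.78-fold) and by 1.23 over input (2.34-fold), with limma adjusted p = 0.00183 and 0.0115. Its relative Ube2q1 was 8.60 in input, 7.99 in IgG, and 8.71 and 8.63 in the IP, and rose over IgG only, by 0.68 (limma adjusted p = 0.0131), a difference of 0.01 after the further quantile normalization (limma adjusted p = 0.909). Ube2ql1 was 4.23 in input, 4.74 in IgG, and 4.23 and 4.36 in the IP, and fell by 0.45 against IgG (limma adjusted p = 0.0468), a call lost in the plain fit (0.118), with trend and robust settings (0.0684), with no level filter (0.0573) and after the further quantile normalization (0.143). Ube2cbp and Ube2d-ps lay between 5.23 and 5.45 on all arrays and passed against neither control. The genes below the level for testing were Ube2dnl1, Ube2dnl2, Ube2e2, Ube2u and Ube2v1, with values from 1.70 to 4.34.

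Against IgG as a whole, 19 of the 31 tested Ube2 genes rose, where 35% of all tested genes did, and 2 fell, where 19.7% did. The count at least 2-fold above IgG was 13 (41.9%), against 18.6% of all tested genes, and 0 were 2-fold below it (6.24%). The median difference was 0.68 for the Ube2 genes and 0.08 for all tested genes. The Ube2 genes were mostly well expressed, and the difference from IgG grew with level: among the 4637 genes at or above the 80th percentile, a filter added after the data were seen, 36% were at least 2-fold above IgG, and so were 11 of 22 Ube2 genes (50%). Their medians were 0.73 and 1.12. By the test, 17 of the 22 Ube2 genes and 70.6% of all genes at that level rose against IgG, and 1, Ube2o, fell (8.63%). Among the 9274 genes at or above the 60th percentile, 19 of 29 Ube2 genes rose (52.2% of all) and 0 fell (12%), and 13 were 2-fold above IgG (27%). After the further quantile normalization the medians over the 40th percentile filter were 0.37 for the Ube2 genes and 0.03 for all tested genes. The Ube2 genes at least 2-fold above IgG then numbered 9 in place of 13, with no matching count made over all tested genes.

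Against input, 9 Ube2 genes rose, where 9.38% of all tested genes did, and 3 fell, where 13.8% did. The 9 make up 29.0% of the tested Ube2 genes. At least 2-fold above input were the 6 genes named first, against 4.04% of all tested genes, and 0 were 2-fold below (5.18%). Among genes at or above the 80th percentile, 4 of 22 Ube2 genes (18.2%) and 5.26% of all genes were 2-fold above input, and 4 of 22 against 3.9% were 2-fold above both controls. By the test, 7 of those 22 rose (21.7%) and 5 fell (39.3%). The filter used the mean of the 4 arrays, so the IP values helped decide which genes passed it. Ube2d1, counted among the 4, was below the 80th percentile of named genes in input (67.7) and in IgG (78.9). In the IP replicates Ube2d1 was at 88.5 and 89.1. At the 60th percentile, 9 of 29 rose (14.9%) and 4 fell (24.6%), 6 were 2-fold above input (5.41%) and 6 above both controls (3.54%). The median difference from input was 0.03 for the Ube2 genes and -0.01 for all tested genes, with a few Ube2 genes far above. Among genes at or above the 60th percentile these medians were 0.03 and -0.05, and at the 80th percentile 0.04 and -0.11. After the further quantile normalization the medians of all tested Ube2 genes and of all tested genes were 0.12 and -0.02. The Ube2 median was thus the higher in each case, by a small amount that was not tested. In the plain fit, 4 Ube2 genes rose against input: Ube2d1, Ube2d3, Ube2l3 and Ube2q2.

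**Figure D3:**
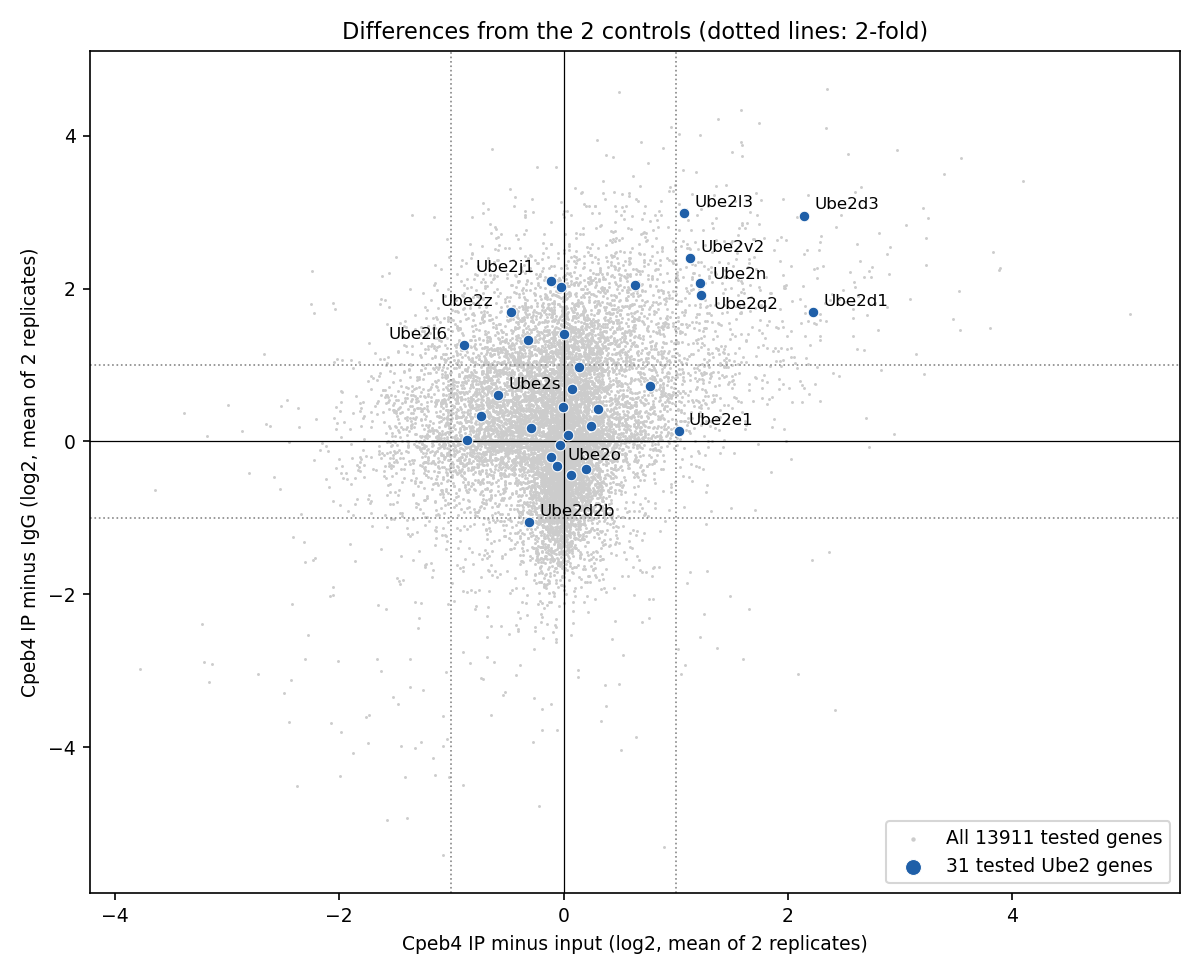
Mean IP minus input (horizontal) against mean IP minus IgG (vertical), both log2, for 13911 tested genes (grey) and 31 Ube2 genes (blue), with dotted lines at 2-fold. The 6 Ube2 genes at the upper right are past 2-fold on both axes, and the axes share the IP values, so the cloud's slope is not a result.

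**Figure D4:**
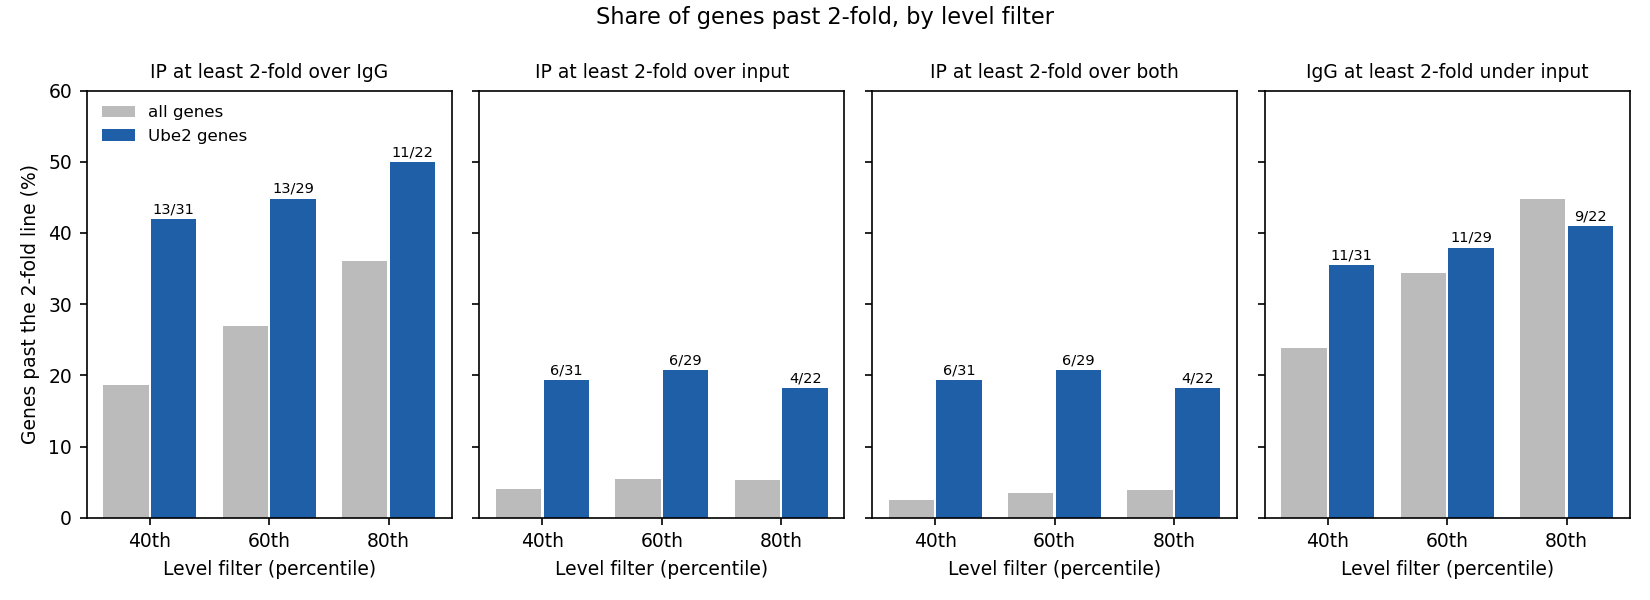
Percent of genes past the 2-fold line for 4 counts, under level filters at the 40th, 60th and 80th percentile, for all genes (grey) and Ube2 genes (blue, with the number above each bar). For all genes the share above IgG grows from 18.6% to 36% with the filter, and the share above both controls from 2.49% to 3.9%.

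The IgG array itself was low for many of these genes. Over all probe sets its values were the least spread, with an SD of 1.74 against 2.13 in input and 2.05 and 2.07 in the IP. Its 90th percentile was 7.12, against 8.02 in input and 7.85 and 7.87 in the IP. What part of the differences from IgG this narrower range makes up was not tested. In IgG minus input, a comparison of 1 array with 1 array and so without a test, 11 of 31 Ube2 genes were at least 2-fold lower in IgG (35.5%), where 23.9% of all tested genes were, and 0 were 2-fold higher (7.93%). Among genes at or above the 80th percentile the shares were 9 of 22 (40.9%) and 44.8%, and at the 60th percentile 11 of 29 and 34.4%. The lowest in IgG were Ube2j1 (-2.22), Ube2z (-2.16), Ube2l6 (-2.15) and Ube2a (-2.05). Of the 13 genes 2-fold above IgG, 7 were not 2-fold above input: Ube2a, Ube2g1, Ube2g2, Ube2j1, Ube2k, Ube2l6 and Ube2z, whose differences from input ran from -0.89 to 0.64. The median of IgG minus input was -0.69 for the Ube2 genes and -0.15 for all tested genes. Among genes at or above the 60th percentile these medians were -0.81 and -0.61, and at the 80th percentile -0.75 and -0.90. At the 80th percentile the Ube2 median was thus not below that of all genes at that level. After the further quantile normalization the medians of all tested Ube2 genes and of all tested genes were 0.06 and -0.03. That normalization moved the median of all tested genes by 0.12.

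**Figure D5:**
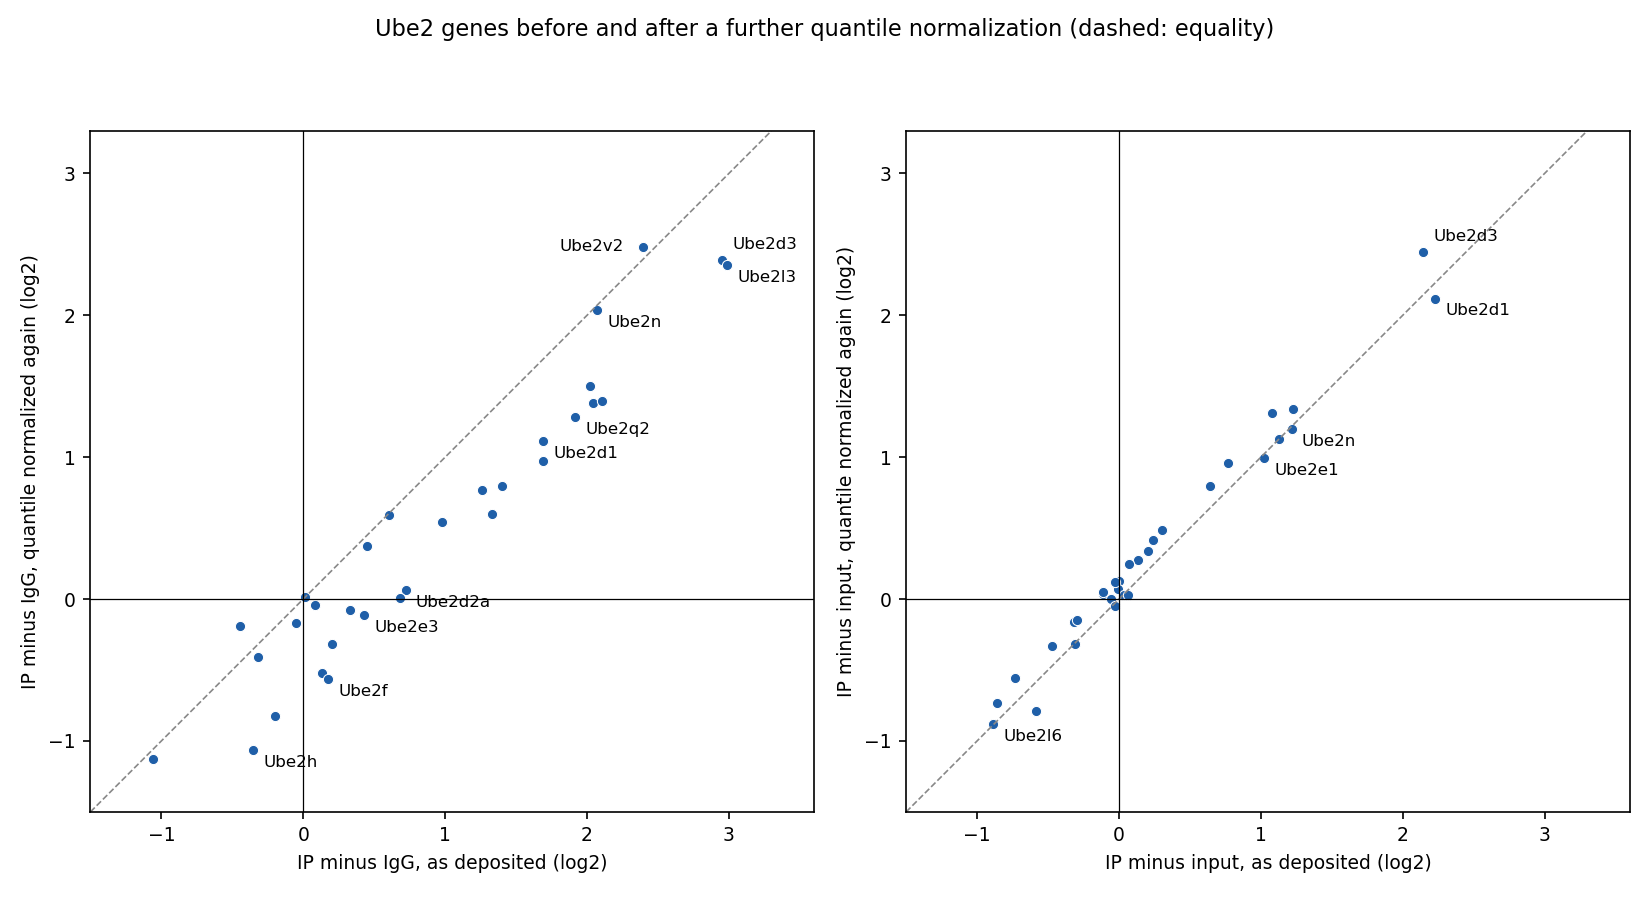
Differences of the 31 tested Ube2 genes as deposited (horizontal) and after a further quantile normalization of the 4 arrays (vertical), from IgG (left) and input (right), all log2, with a dashed line of equality. Against IgG most points fall below the line, as Ube2d2a does from 0.72 to 0.06, while against input Ube2d1 and Ube2d3 stay past 2.

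The other parts of the conjugation pathway were taken from lists chosen with earlier results of these data known. The shares to read their counts against, over all tested genes, were 35% that rose and 19.7% that fell against IgG, and 9.38% that rose and 13.8% that fell against input. At or above the 60th and 80th percentile of level, 52.2% and 70.6% rose against IgG. Against input, 14.9% and 21.7% rose and 24.6% and 39.3% fell at these 2 levels. Of 10 listed E1 genes, 6 were measured, and Uba1 was not among them. Of these 6, 4 rose and 1 fell against IgG, and 0 rose and 3 fell against input. Nae1, a subunit of the NEDD8 E1, rose by 2.10 over IgG, and Uba7, the E1 of ISG15, fell by 1.41 against IgG and by 1.63 against input (limma adjusted p = 0.00351, 0.00705 and 0.0146). Of 7 genes with an E2 fold but another name, 6 rose against IgG and 1, Aktip, rose against input, by 0.71 (limma adjusted p = 0.0254). Tsg101, an inactive E2-like protein of endosomal sorting, rose by 2.42 over IgG. Cdc34, the E2 of cullin ligases, rose by 1.07 over IgG with -0.04 against input.

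Of 13 listed modifier genes, 7 were measured, and no gene for ubiquitin itself was among them. Of these 7, 4 rose and 1 fell against IgG, where 35% and 19.7% of all tested genes did. Against input 1 rose and 4 fell, where 9.38% and 13.8% did (24.6% and 39.3% fell at or above the 60th and 80th percentile of level). Nedd8 rose by 1.32 over IgG and fell by 0.79 against input, while Sumo3 rose against both, by 0.98 and 0.60. Of 33 listed ligase genes that work with these E2 enzymes, 31 were measured. Of these 31, 15 rose and 0 fell against IgG, and 1 rose and 8 fell against input. These counts are to be read against the same shares, those by level included. Traf6, a ligase that uses Ube2n, rose by 1.95 over IgG and differed by 0.57 from input. Rad18, a ligase that uses Ube2a and Ube2b, differed by 0.07 from IgG and fell by 1.51 against input, and Fancl, the ligase of Ube2t, differed by 0.31 and fell by 2.04. None of the 51 measured genes on these 4 lists was at least 2-fold above both controls in both replicates, where 2.49% of all tested genes were, so that 0 is near the background. In 1 of them, Uba7, both replicates were 2-fold below both controls (0.503%).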

How the data were processed

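The authors deposited 1 table of log2 values with a row per probe set, made with RMA and the affy package per the submitters' processing notes. The log2 scale was read from the range of the values, and version, probe definition and genome build were not given in the sources used here. Genes were named through GEO's platform annotation, possibly outdated, with 1 symbol for 23185 probe sets, several for 0 and none for 2021. All 36 Ube2 genes matched RefSeq by gene number (GRCm38.p6 table, names only).

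Differences were fitted with limma 3.58.1 in R 4.3.3 on 3 group means (1 residual degree of freedom) with Benjamini-Hochberg adjustment. In 3032 tested genes, 3 of them Ube2 genes, the IP replicates were equal within 1e-09, as RMA's median polish can give. These genes were given 0 residual degrees of freedom and so took the prior spread of the others (SD 0.110, 3.07 degrees of freedom). The level filter was a log2 value of 3.84. The number of arrays limits the precision. P-values rest on the spread between the 2 IP replicates.

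Every tested Ube2 gene was named, grouped by role. The members, roles, lists and tests were chosen with earlier results of these data known. Alternatives were a plain limma fit, trend and robust settings, other level filters (the 80th percentile added after the data were seen), quantile normalization again, other thresholds and leaving out an array.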

Additional observations from a re-analysis of the deposited data

How the results depend on the processing

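Both controls were single arrays, so no control spread was measured, and arrays of this kind give no depth. Leaving out an IP replicate leaves no residual degrees of freedom, so only sizes were recounted, and signal over background was not analysed here. No paired analysis was possible because the controls were 1 array each and shared fewer than 2 replicate numbers with the IP. The causes of the changes below were not tested, apart from those that a threshold or filter sets by its construction.

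The count of Ube2 genes above IgG by the test stayed within 1.5 times of 19 in every alternative run. The falls against IgG, 2 as reported (Ube2d2b and Ube2ql1), numbered 1 in the plain limma fit, where both of these were lost and Ube2o was called, 0 under the 60th percentile filter and 4 after quantile normalization again. The 9 rises against input became 4 in the plain limma fit, and the 3 falls became 6 with trend and robust settings. With a 4-fold threshold, 4 genes were above IgG, 2 above input, 1 (Ube2d3) above both and in 4 IgG lay under input. With 1.5-fold, 1 gene was below IgG and 3 below input, and 2 were higher and 17 lower in IgG than in input. With no level filter, 1 gene (Ube2v1) was below each control and both. Without the input array, 13 genes counted as above the remaining control. After quantile normalization again, 3 genes were higher and 7 lower in IgG than in input.

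Without IP replicate 1 or 2 in turn, genes 2-fold below IgG numbered 0 to 1 (Ube2d2b), those below input 0 to 1 (Ube2w), and those above input 6 to 7, and those above both stayed at 6. The median against IgG was then 0.64 to 0.68 and against input 0.00 to 0.022. The median against IgG, 0.68 as deposited, was 0.37 after quantile normalization again, 0.44 with no filter and 0.72 with the 60th percentile filter. Against input it was 0.12 and 0.017 in the first 2 of these. The median of IgG minus input turned from -0.69 to 0.057 after quantile normalization again, and was -0.49 and -0.81 with the other filters. For single genes, that normalization turned Ube2e3 to -0.11 and Ube2f to -0.56 against IgG. Ube2b (-0.32), Ube2e1 (-0.52), Ube2t (-0.08) and Ube2cbp (-0.04) also turned negative against IgG, but were called neither before nor after.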
